A study of Mus musculus with 14 samples.

Results

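Heart muscle genes were followed across microarrays of mouse embryo heads. The set comprised 38 genes, fixed as a list of symbols, for the thick and thin filaments of the sarcomere, its Z-disc and assembly, calcium handling and the cell membrane, secreted peptides and cardiac transcription factors. They had 88 of the 45281 probes on the array, and 37 of the 38 genes had at least 1 probe; Tnnt2, the cardiac troponin T, had none and was not analysed here. A gene was tested when a probe lay above background (detection p under 0.05) on at least 3 arrays, and its brightest such probe stood for it. This kept 31 of the 38 genes among 11394 genes in all.

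RNA came from heads at E8.5 with 5 to 7 somites, on a mixed C57Bl/6, 129 and BALB/c background, and was measured on 14 Illumina bead arrays. CM-CKO heads (n = 4) were Twist1flox/del; Mesp1Cre/+, with a floxed and a deleted copy of Twist1 and Cre at the Mesp1 locus. CM-Het heads (n = 3) were Twist1flox/+; Mesp1Cre/+, Het heads (n = 3) were Twist1flox/del; Mesp1+/+, and Control heads (n = 4) were Twist1flox/+; Mesp1+/+, so that a floxed copy was common to all 4 groups. Mesp1-Cre acts in early mesoderm, the lineage that builds the heart as well as part of the head mesenchyme, and Twist1 is a transcription factor of that mesenchyme. In CM-CKO and Het heads the deleted copy is missing outside that lineage too. Cre was present only as the Mesp1Cre allele, so an effect of Cre cannot be told apart from that of a changed Mesp1 copy. Nothing in the labels says whether replicates were separate embryos, litters or pools, so every p-value measures only the spread between these samples, which may be technical.

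At this stage the heart is a beating tube that lies directly beneath the head, against the pharynx. Its muscle cells build sarcomeres, in which myosin thick filaments slide along actin thin filaments anchored at the Z-disc, and calcium released through the ryanodine receptor and pumped back by the calcium ATPase sets each beat. Nkx2-5, the GATA factors, Tbx5, Tbx20 and Mef2c switch these genes on together, and serum response factor binds the CArG box found before many of them. In whole tissue, fewer cells of a type and less RNA per cell cannot be told apart.

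Because most members moved together, the promoters of a few are shown. Of the 38 genes, 30 had a promoter in the RefSeq table of build GRCm38.p6, each 250 bases before to 50 bases after an annotated start. Both strands were searched for the CArG box and the MEF2 box by name, for TATAAA of the TATA box, for GATAA of the GATA factors, for TNAAGTG of Nkx2-5, for CATTCC of the TEAD factors and for GGTGTGA of the T-box factors. No search was limited to letters left over by another motif, and matches are in capitals. Actc1, Myl7 and Myl3 held a CArG box, Ttn a MEF2 box, and Nppa the T-box, Nkx2-5 and GATA letters. The promoters lie at chr2:114052826-114053125 on the minus strand for Actc1, chr11:5898733-5899032 on the minus strand for Myl7, chr9:110763428-110763727 on the plus strand for Myl3, chr2:76982498-76982797 on the minus strand for Ttn and chr4:148000472-148000771 on the plus strand for Nppa.
Actc1: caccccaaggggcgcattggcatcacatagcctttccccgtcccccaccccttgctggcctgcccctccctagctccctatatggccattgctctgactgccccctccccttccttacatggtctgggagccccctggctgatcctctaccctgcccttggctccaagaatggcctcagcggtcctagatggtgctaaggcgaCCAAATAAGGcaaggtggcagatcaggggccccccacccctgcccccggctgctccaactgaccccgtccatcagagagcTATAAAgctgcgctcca
Myl7: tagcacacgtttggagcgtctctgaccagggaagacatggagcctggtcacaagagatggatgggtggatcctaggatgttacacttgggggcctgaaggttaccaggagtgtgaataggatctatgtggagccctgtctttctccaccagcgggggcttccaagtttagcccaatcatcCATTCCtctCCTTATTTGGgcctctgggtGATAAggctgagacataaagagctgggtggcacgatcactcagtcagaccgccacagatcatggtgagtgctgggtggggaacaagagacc
Myl3: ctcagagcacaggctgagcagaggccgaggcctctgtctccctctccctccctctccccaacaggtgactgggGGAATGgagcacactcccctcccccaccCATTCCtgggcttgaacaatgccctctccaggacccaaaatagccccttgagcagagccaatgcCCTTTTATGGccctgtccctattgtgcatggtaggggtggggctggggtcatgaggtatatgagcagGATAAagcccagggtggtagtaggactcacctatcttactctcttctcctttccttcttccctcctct
Ttn: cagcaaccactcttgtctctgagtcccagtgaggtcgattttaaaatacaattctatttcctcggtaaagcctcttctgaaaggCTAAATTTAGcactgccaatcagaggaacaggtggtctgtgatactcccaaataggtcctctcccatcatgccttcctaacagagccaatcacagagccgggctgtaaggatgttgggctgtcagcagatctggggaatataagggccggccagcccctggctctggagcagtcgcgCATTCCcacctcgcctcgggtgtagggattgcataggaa
Nppa: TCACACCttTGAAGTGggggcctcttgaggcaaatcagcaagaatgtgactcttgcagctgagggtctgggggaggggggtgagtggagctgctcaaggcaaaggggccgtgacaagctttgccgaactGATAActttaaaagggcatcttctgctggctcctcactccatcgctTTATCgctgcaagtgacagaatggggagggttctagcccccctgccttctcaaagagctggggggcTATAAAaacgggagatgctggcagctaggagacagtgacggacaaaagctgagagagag
Counted from the annotated start, the CArG box began at -47 in Actc1, -61 in Myl7 and -85 in Myl3, and the TATAAA of Actc1 at 33. A CArG box stood in a promoter of 5 of the 30 members (Myl3, Myl7, Actc1, Ldb3 and Myom1) and in 1.63% of all 32851 promoters. A MEF2 box stood in 2 members (Mybpc3 and Ttn) and 3.19% of promoters. GATAA was in 15 members and 25.4% of promoters, CATTCC in 11 and 14.7%, TATAAA in 8 and 13.6%, TNAAGTG in 4 and 11.5%, and GGTGTGA in 3 and 3.98%. Members were counted by gene, with a match in any of its annotated promoters, and the percentages by single promoter. A gene with several promoters thus had more chances of a match. These are matches of letters, not sites shown to be bound.

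The arrays were alike in overall brightness. Median intensity ran from 92.29 to 116.3 and 40.3% to 43% of probes lay above background on an array. Twist1 followed the labels, with log2 signals of 7.65 to 7.96 in CM-CKO, 8.55 to 8.81 in CM-Het, 8.46 to 8.70 in Het and 9.13 to 9.55 in Control. The array descriptions place CM-Het and Het on beadchip 1, Control with CM-CKO 1 and CM-CKO 2 on beadchip 2, and CM-CKO 3 and CM-CKO 4 on beadchip 3. Beadchip 1 against beadchip 2 therefore cannot be told apart from CM-Het or Het against Control. Of the defining heart muscle markers, Actn2, Myl7, Myh6 and Nkx2-5 were above background on all 14 arrays, so every head sample gave heart muscle signal, while Nppa was above background on 4 arrays.

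Heart muscle signal differed between heads of the same genotype. The mean log2 signal over the 31 tested genes was 6.42, 7.70, 6.80 and 7.97 on the CM-CKO arrays, 6.71, 6.65 and 6.82 on the CM-Het arrays, 6.50, 6.43 and 7.48 on the Het arrays, and 8.65, 6.84, 8.33 and 6.68 on the Control arrays. The 5 arrays Control 1, Control 3, CM-CKO 4, CM-CKO 2 and Het 3 were high and the other 9 low, with the widest gap, 0.64, between 6.84 and 7.48. Both sides of that gap held CM-CKO, Het and Control arrays, while all CM-Het arrays were low. For 20 of the 31 genes those same 5 arrays were the brightest 5, and 24 genes peaked in Control 1 and 3 in Control 3.

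**Figure D1:**
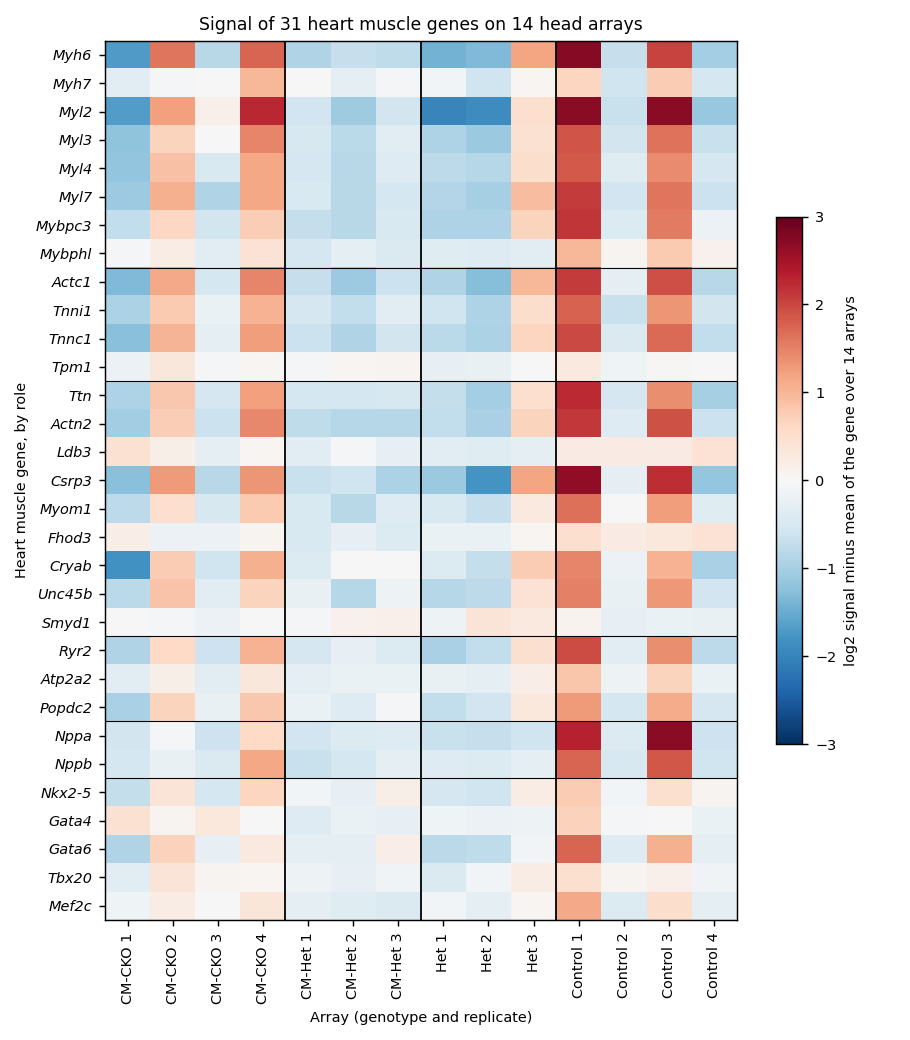
Heat map of the 31 tested heart muscle genes (down, grouped by role) on the 14 arrays (across, grouped by genotype), coloured by log2 signal minus the mean of that gene over all arrays. CM-CKO 2, CM-CKO 4, Het 3, Control 1 and Control 3 are red for most genes, while Ldb3, Fhod3, Smyd1, Gata4 and Tpm1 stay pale.

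Deviations from the genotype means were correlated over the 14 arrays (10 residual degrees of freedom). The points share whole RNA samples, so these correlations are descriptions. Over 465 pairs of genes the median Pearson r was 0.86, and 40.2% of pairs exceeded 0.9. The first principal component held 93.9% of the members' variance within genotypes. Set against the mean of the other members, 19 genes had an r over 0.9, beside 0.606% of all 11394 genes (69, of which 50 were not in the set). The members also varied far more than most genes: their median SD within genotypes was 0.86, against 0.16 over all genes, 30 of 31 lay above that gene median, and 15 were among the 50 most variable genes on the array.

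The thick filament moved as one. Pairs among its 8 genes had a median r of 0.95 (0.79 to 0.99). Myh6, the atrial myosin heavy chain that the early heart tube also uses, had log2 signals of 5.67, 8.96, 6.53 and 9.11 in CM-CKO, 6.46, 6.68 and 6.60 in CM-Het, 5.95, 6.04 and 8.54 in Het, and 10.10, 6.68, 9.40 and 6.35 in Control. Myl2, the ventricular regulatory light chain, had 5.55, 8.45, 7.37 and 9.48 in CM-CKO, 6.66, 6.17 and 6.68 in CM-Het, 5.24, 5.34 and 7.72 in Het, and 9.93, 6.55, 9.94 and 6.08 in Control. Both spread widely, over 21.6-fold for Myh6 and 26-fold for Myl2, with the same 5 arrays on top. Myl7, the atrial regulatory light chain, had 9.0, 11.16, 9.20 and 11.26 in CM-CKO, 9.64, 9.25 and 9.57 in CM-Het, 9.22, 9.10 and 11.03 in Het, and 12.19, 9.52, 11.71 and 9.45 in Control. It followed the mean of the other members at r = 0.99 and the groups overlapped throughout.

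Among the other thick filament genes, the essential light chains Myl3 and Myl4 (r = 0.98 and 0.99) and the myosin-binding protein Mybpc3 (r = 0.98) covered ranges of 8.11-fold to 8.57-fold. Myh7, the beta myosin heavy chain of the ventricle, was dim and looser (r = 0.87). Its log2 signals were 4.77, 5.03, 5.06 and 6.07 in CM-CKO, 5.08, 4.80 and 5.05 in CM-Het, 4.99, 4.49 and 5.14 in Het, and 5.73, 4.48, 5.84 and 4.55 in Control. It was highest in CM-CKO 4 and was not above background in Het 2, Control 2 and Control 4. Mybphl, a myosin-binding protein H-like protein of the atria, lay above background on 7 arrays (r = 0.87) and is taken up again with the genotypes.

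The thin filament was almost as tight, apart from its tropomyosin. Actc1, cardiac alpha-actin, had log2 signals of 9.02, 11.48, 9.83 and 11.82 in CM-CKO, 9.65, 9.26 and 9.70 in CM-Het, 9.45, 9.07 and 11.34 in Het, and 12.44, 10.06, 12.28 and 9.52 in Control. Each genotype with a high array spanned more than the distance between any pair of genotype means. The other Actc1 probe gave the same pattern (r = 0.98 between the probes). Tnni1, the slow troponin I of the embryonic heart, and Tnnc1, its troponin C, both followed the set at r = 0.99. Tpm1, a tropomyosin made in many cell types, moved by only 0.59 on the log2 scale (11.18 to 11.77, r = 0.77). Tnni3, the troponin I that takes over later in heart development, was above background on 2 arrays, Control 1 and Control 3.

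The Z-disc and assembly group split. Titin (Ttn), its spring and ruler, the cross-linker Actn2 and the M-band protein Myom1 each had r = 0.99 with the set. Csrp3, the muscle LIM protein, had 0.97, the myosin chaperone Unc45b 0.97 and the small heat shock protein Cryab 0.94. The formin Fhod3 (r = 0.17), the PDZ and LIM protein Ldb3 (r = -0.20) and the methyltransferase Smyd1 (r = 0.39) did not share the pattern, and their SDs within genotypes, 0.14, 0.19 and 0.17, were near the median of all genes. Nexn, an actin-binding Z-disc protein, was above background on 1 array. Probes of a single gene could differ as well: 4 other Ttn probes correlated with the chosen one at 0.37, 0.57, 0.78 and 0.97, the other Fhod3 probe at 0.53 and the other Ldb3 probe at 0.21. The Ttn probes at 0.37, 0.57 and 0.78 lay near background and were above it on 3 arrays each, against 13 for that at 0.97. The other Fhod3 and Ldb3 probes were above background on 6 arrays each.

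Calcium handling genes were tight but unequal in size. The ryanodine receptor Ryr2 ranged over 7.73-fold (r = 0.99) and Popdc2, a membrane protein of heart and skeletal muscle, over 4.79-fold (r = 0.99). Atp2a2, the calcium pump SERCA2, made in most tissues, ranged over 2.23-fold at the same r of 0.99. Its 3 tested probes split: another correlated with the chosen one at 0.98, while the remaining one, at 0.64, stayed between 10.25 and 10.65. Pln, the pump's inhibitor phospholamban, was above background on no array.

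The secreted peptides were above background on fewer arrays than most sarcomere genes. Nppa, atrial natriuretic factor, marks working muscle as the chambers begin to form. Its log2 signals were 4.39, 4.91, 4.32 and 5.54 in CM-CKO, 4.38, 4.54 and 4.57 in CM-Het, 4.27, 4.26 and 4.34 in Het, and 7.26, 4.53, 7.66 and 4.32 in Control. It was above background on 4 arrays, Control 1, Control 3, CM-CKO 2 and CM-CKO 4. Het 3, with Myl7 at 11.03, held no Nppa above background, whereas CM-CKO 2, with Myl7 at 11.16, held 4.91. Nppb, its sister peptide, was above background on 3 arrays, at 6.05 in CM-CKO 4, against 6.64 in Control 1 and 6.75 in Control 3. Bmp10, a ligand of the trabeculated chambers, was above background on no array. Nppa and Nppb followed the set at r = 0.85 and 0.86. Both passed the detection filter only through arrays with high heart muscle signal, so a high r follows in part from that filter. The r was 0.76 and 0.79 without Control 1 and Control 4, with the genotype means not recomputed. On the low arrays, where both were at background, it was 0.11 and 0.56.

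Cardiac transcription factors were mixed. Nkx2-5, the homeobox factor of cardiac progenitors and muscle, had log2 signals of 6.50, 7.59, 6.67 and 7.84 in CM-CKO, 7.12, 6.96 and 7.39 in CM-Het, 6.70, 6.61 and 7.44 in Het, and 7.97, 7.13, 7.69 and 7.29 in Control. It moved with the set (r = 0.89) over a 2.77-fold range. Gata6 was tighter (r = 0.95), Mef2c similar (r = 0.89) and Tbx20 looser (r = 0.75). Gata4 had 5.08, 4.69, 4.94 and 4.62 in CM-CKO, 4.23, 4.43 and 4.38 in CM-Het, 4.49, 4.44 and 4.46 in Het, and 5.30, 4.58, 4.62 and 4.41 in Control. It was above background only in Control 1, CM-CKO 1 and CM-CKO 3, and the last pair were low in heart muscle signal (r = 0.23). Its r was -0.55 once Control 1 and Control 4 were left out, with the genotype means not recomputed. Tbx5, needed for the inflow and left ventricle, had 4.54, 4.48, 4.36 and 4.46 in CM-CKO, 4.39, 4.33 and 4.30 in CM-Het, 4.32, 4.26 and 4.46 in Het, and 4.94, 4.60, 4.43 and 4.39 in Control. It was above background in Control 1 alone and was not tested. Hand1, a bHLH factor of the outer curvature, was above background on no array.

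**Figure D2:**
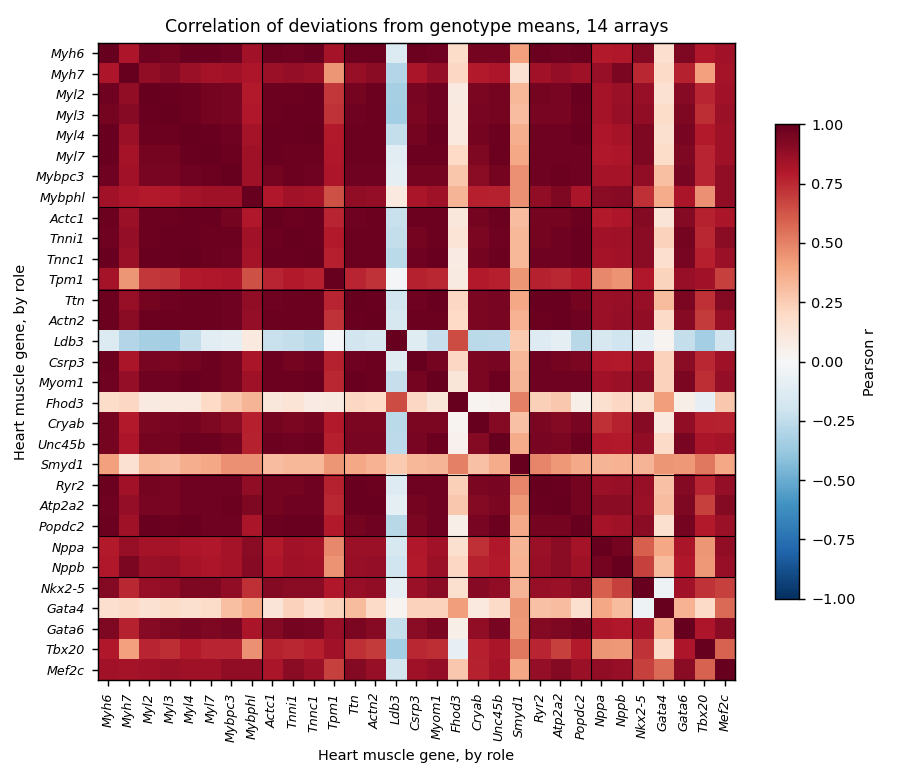
Matrix of Pearson correlations between the 31 tested heart muscle genes (both axes, grouped by role), from deviations from genotype means over 14 arrays. Thick filament pairs are between 0.79 and 0.99, while Ldb3, Fhod3, Smyd1 and Gata4 form pale lines.

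The covariation was weaker where no high array was included. Within a genotype the median pair r was 0.88 in CM-CKO, 0.14 in CM-Het, 0.98 in Het and 0.97 in Control, each from 3 or 4 arrays. CM-Het held no high array and its member mean had an SD of 0.09, against 0.59 to 1.01 in the other genotypes. The 9 low arrays were split off by the members' own mean, so its range among them is narrow, which by itself lowers r. Among them the median pair r was 0.35 and 5 genes kept an r over 0.9 (Myl2, Myl3, Myl4, Actc1 and Tnnc1). Some had a negative r there: Fhod3 had r = -0.93, Ldb3 -0.91, Mybphl -0.78, Smyd1 -0.44 and Gata4 -0.23. Few residual degrees of freedom were left, and Ldb3, Mybphl and Gata4 were at background on most low arrays. These values therefore cannot show that the genes ran opposite to the set. Between the 19 tight genes the median pair r was 0.67 there, and 94.7% of their pairs stayed above 0. These genes were chosen for their r on all arrays, the low ones included, so a higher value is partly built in. Control 1 and Control 4 were the 2 arrays whose mean deviation from the genotype mean lay farthest from the median. Leaving them out, without recomputing the genotype means, left 20 genes over 0.9, beside 0.553% of all genes. Ranks over all arrays gave 22. No share of all genes is given for the ranks or for the 9 low arrays, so those counts stand without a background.

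Genes outside the set showed the same profile. The 10 most alike of all genes tested were Myo18b (r = 0.987), a myosin of striated muscle, Ankrd1 (0.986), a cardiac ankyrin repeat protein, Cyria (0.986), a regulator of actin assembly, Acta2 (0.985), smooth muscle actin, which the early heart also makes, Myl1 (0.983), a myosin light chain, Sphkap (0.982), a kinase anchoring protein, Hspb2 (0.981), a muscle heat shock protein, Slc8a1 (0.981), the sodium-calcium exchanger of the heart tube, Rassf5 (0.98), a Ras-binding protein, and Acta1 (0.977), skeletal alpha-actin. The most opposite were Scamp5 (-0.942), Chmp7 (-0.908) and Nkx6-1 (-0.892), the last a factor of the ventral neural tube. A second list of 45 heart muscle genes, with 28 tested, had a mean that followed the set at r = 0.99, and 8 of the 28 passed 0.9 singly. These include Myocd, the cofactor of serum response factor (0.94), and Tmod1, which caps actin filaments (0.95). Nebl (-0.06), Dmpk (-0.22), Rbm24 (-0.31) and Cacna1c (-0.55) did not follow.

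Mean signals of gene lists for other cell types moved with heart muscle to differing degrees. The mean of 5 tested smooth muscle genes of 7 followed the members at r = 0.96. It ran from 7.01 to 7.83 in CM-CKO, 7.19 to 7.23 in CM-Het, 7.21 to 7.48 in Het and 7.39 to 8.41 in Control, with Cnn1 and Myh11 at background on every array. The mean of 5 skeletal muscle genes of 11 had r = 0.98, with Acta1 among them and Myf5, Mymk and Chrna1 at background on every array. Foregut endoderm, which underlies the heart, had r = 0.85 (9 of 11 genes tested, 7.91 to 8.23 in CM-CKO, 8.03 to 8.08 in CM-Het, 7.74 to 7.97 in Het and 7.78 to 8.04 in Control, with Pax9 and Epcam at background). Yolk sac endoderm had r = 0.72 (8 of 11 tested, with Apoa4 at background). It ran from 4.93 to 5.88 in CM-CKO, 5.28 to 5.93 in CM-Het and 4.94 to 5.96 in Het, and in Control from 5.41 to 7.69, the top in Control 1. Endocardium had r = 0.69, proepicardium 0.64, second heart field and pharyngeal mesoderm 0.62, endothelium 0.51, primitive erythroid cells -0.42 and neural tube -0.58. All these r are of list means, and single genes followed less closely. The median r of single genes was 0.88 for smooth muscle (0.01 to 0.99) and 0.61 for skeletal muscle (-0.37 to 0.98). It was 0.67 for yolk sac endoderm (0.3 to 0.82). For foregut endoderm it was 0.08 (-0.17 to 0.91), and only 1 of its 9 genes passed 0.9. The part of these tissues in the heart muscle differences was not tested.

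Members were also set against the mean of the 28 other heart muscle genes, which ran from 5.60 in CM-CKO 1 to 6.58 in Control 1. Myl2, Myl7 and Atp2a2 were highest on the 5 arrays where that mean was highest. Among arrays with nearly the same mean, Myl2 still ran from 5.34 in Het 2 (mean 5.66) to 7.37 in CM-CKO 3 (mean 5.72). Nppa stayed at background until it was near the top, and Fhod3 was highest in Control whatever that mean was.

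**Figure D3:**
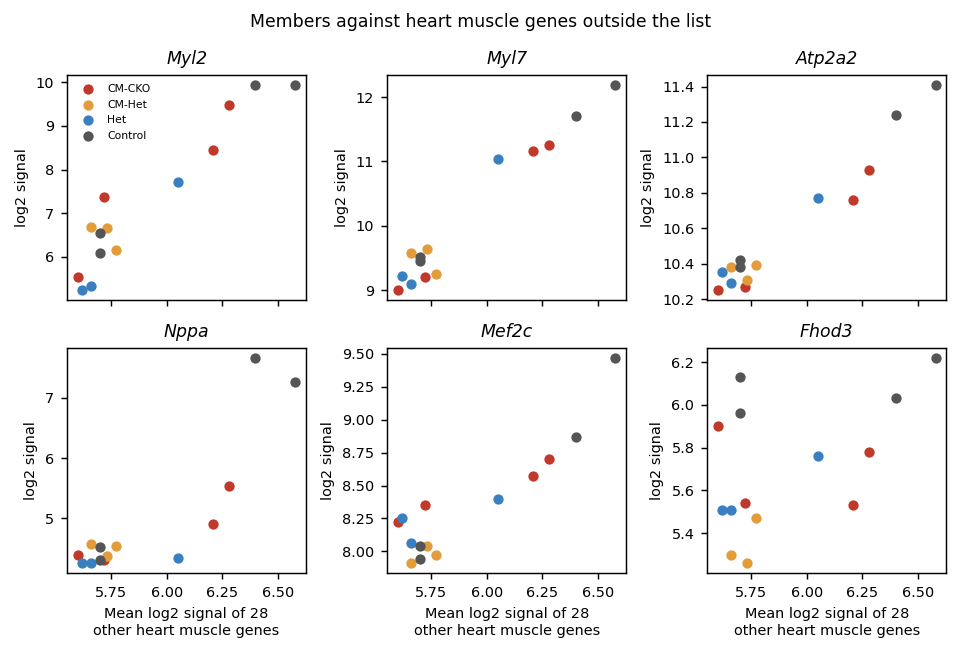
Log2 signal of 6 members against the mean log2 signal of 28 other heart muscle genes, 1 point per array, coloured by genotype. Myl2, Myl7 and Atp2a2 are highest on the 5 arrays with the highest mean, Myl2 is spread among the other arrays, Nppa leaves background on 4 arrays only, and the Control points of Fhod3 (5.96 to 6.22) lie above all others.

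CM-CKO against Control, the main question of the design, showed no called heart muscle gene. With limma and Benjamini-Hochberg adjustment over the 11394 genes, 0 of 31 members passed an adjusted p of 0.05, beside 0.702% of all genes, and 2 passed an unadjusted p of 0.05 (Fhod3 and Mybphl), beside 11.2%. The median difference was -0.41 on the log2 scale, beside 0 over all genes. There were 3 members above 0 and 28 below, beside 49.4% of all genes below 0. Most members moved together, so such counts, here and in the other comparisons, are not separate observations. The spread within genotypes was large: the median SE was 0.48 for members and 0.12 for all genes. Myl7 averaged 10.15 ± 1.22 in CM-CKO and 10.72 ± 1.44 in Control (SD, n = 4 each), a difference of -0.56 (SE 0.62, limma adjusted p = 0.78; two-sided exact permutation p = 0.514). Myl2 differed by -0.41 (SE 0.88), Myh6 by -0.57 (SE 0.85), Actc1 by -0.54 (SE 0.67) and Nkx2-5 by -0.37 (SE 0.27). Nppa averaged 4.79 ± 0.57 in CM-CKO and 5.94 ± 1.76 in Control (SD, n = 4 each; exact permutation p = 0.343), with a pair of arrays at background on each side.

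Single arrays set the size of this median. It was -0.07 without Control 1, -0.18 without Control 3 and -0.06 without CM-CKO 1, and -0.27 without CM-CKO 3. It was -0.72 without Control 2, -0.85 without Control 4 and -0.75 without CM-CKO 4. Within beadchip 2 it was -0.64, with 27 members below 0, and for the CM-CKO arrays of beadchip 3 against Control -0.26, with 26 below 0. Both differences use the same Control arrays, so they are not separate results. The latter also sets beadchip 3 against beadchip 2, which cannot be told apart from genotype there. The share of all genes below 0 is not given for either.

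**Figure D4:**
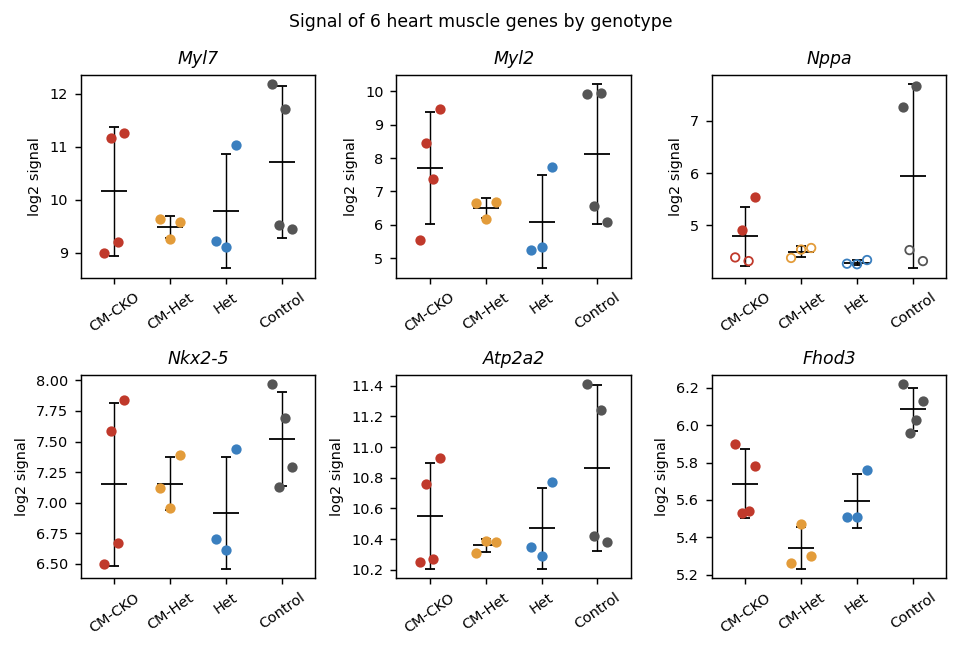
Log2 signal of Myl7, Myl2, Nppa, Nkx2-5, Atp2a2 and Fhod3 on each array by genotype; bars give mean and SD, and open circles are arrays where the probe was not above background. In the first 5 genes the CM-CKO and Control points overlap, while all Fhod3 points of Control lie above those of CM-CKO.

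Fhod3, a formin that helps to assemble cardiac myofibrils and is also made elsewhere, was among the genes outside the shared pattern. Its log2 signals were 5.90, 5.53, 5.54 and 5.78 in CM-CKO, 5.26, 5.47 and 5.30 in CM-Het, 5.51, 5.51 and 5.76 in Het, and 6.22, 5.96, 6.03 and 6.13 in Control. By this probe every Control array was above every array of the other genotypes. The other tested Fhod3 probe, above background on 6 arrays, had 4.91, 4.93, 4.53 and 4.89 in CM-CKO, 4.52, 4.63 and 4.47 in CM-Het, 4.58, 4.60 and 4.95 in Het, and 4.62, 4.41, 4.85 and 5.04 in Control. There the groups overlapped, with Control 2 the lowest of all arrays, and CM-CKO differed from Control by 0.08 (SE 0.14, limma adjusted p = 0.88 over all detected probes). By the brighter probe, CM-CKO averaged 5.69 ± 0.18, against 6.08 ± 0.11 in Control (SD, n = 4 each). The difference was -0.40 (SE 0.12, limma adjusted p = 0.195), and the two-sided exact permutation p of 0.0286 is the smallest that 4 against 4 arrays allow. It was the only member with no overlap in this comparison, beside 2.88% of all genes lower and 2.56% higher without overlap.

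CM-Het against Control gave the only called member of a pairwise comparison. Fhod3 fell to 5.34 ± 0.11 (SD, n = 3) in CM-Het, against 6.08 ± 0.11 (n = 4) in Control, a log2 difference of -0.74 (SE 0.13, limma adjusted p = 0.0296), 1 of 31 members beside 0.412% of all genes. The call was lost without CM-Het 1 (adjusted p = 0.15), CM-Het 2 (0.0731), CM-Het 3 (0.128), Het 2 (0.0516), Control 1 (0.061), Control 3 (0.0552) or Control 4 (0.0697). The other Fhod3 probe gave -0.19 (SE 0.16, limma adjusted p = 0.587). At an unadjusted p of 0.05 there were 12 members, beside 15.8% of all genes. Among them, Mybphl, Ldb3, Nppa, Nppb and Gata4 passed the detection filter only through Control and CM-CKO arrays. The median member difference was -0.95, beside -0.02 over all genes, and -0.58 without Control 1. Below 0 were 30 of 31 members, beside 54% of all genes. Without overlap 6 members were lower (Mybpc3, Mybphl, Actn2, Ldb3, Myom1 and Fhod3) and 0 higher, beside 7.57% and 6.91% of all genes. Of these, Mybphl and Ldb3 passed the detection filter only through Control and CM-CKO arrays.

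Het against Control shares its Control arrays with that comparison. With limma, 0 members and 0% of all genes were called, and 9 members passed an unadjusted p of 0.05, beside 12.4% of genes. The median was -0.92, or -0.56 without Control 1, and 30 members were below 0, beside 52.8% of all genes. Fhod3, Mybphl and Ldb3 were lower without overlap and 0 members higher, beside 5.7% and 5.61% of genes. Mybphl and Ldb3, like Nppa, passed the detection filter only through Control and CM-CKO arrays. Nppa, at background on all CM-Het and Het arrays, was at least 2.32-fold lower in CM-Het and at least 2.29-fold lower in Het than the Control mean, which rests on the 2 Control arrays that measured it; Control 2 (4.53) and Control 4 (4.32) were at background too. The differences were not called (limma adjusted p = 0.26 for CM-Het and 0.272 for Het; exact permutation p = 0.4 and 0.2). Each bound divides the Control mean by a floor, which on every array is the dim signal or the lowest signal above background, whichever is larger. The 2 comparisons set beadchip 1 against beadchip 2, which cannot be told apart from genotype.

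Mybphl and Ldb3 stood apart by beadchip. Mybphl had log2 signals of 4.76, 5.03, 4.51 and 5.24 in CM-CKO, 4.31, 4.55 and 4.38 in CM-Het, 4.46, 4.42 and 4.48 in Het, and 5.82, 4.90, 5.61 and 4.95 in Control. It was above background on all Control arrays and 3 CM-CKO arrays, and on none of CM-Het or Het. Ldb3 had 5.23, 4.95, 4.52 and 4.84 in CM-CKO, 4.43, 4.75 and 4.54 in CM-Het, 4.43, 4.41 and 4.51 in Het, and 5.02, 5.02, 5.02 and 5.22 in Control. For these 2 probes, all 6 arrays of beadchip 2 lay above all 6 arrays of beadchip 1, beside 0.895% of all genes. Both probes, like those of Nppa, Nppb and Gata4, passed the detection filter only through Control and CM-CKO arrays. Their lower signal in CM-Het and Het, and differences built on it, follow in part from that filter. On beadchip 3, CM-CKO 3 was at background for both and CM-CKO 4 above background for both. The other tested Ldb3 probe, above background on 6 arrays, had 4.53, 4.93, 4.62 and 4.78 in CM-CKO, 4.72, 5.09 and 5.00 in CM-Het, 4.54, 4.68 and 4.69 in Het, and 4.98, 4.63, 4.42 and 4.89 in Control. Its highest arrays were CM-Het 2 and CM-Het 3, and its difference of CM-Het from Control was 0.21 (SE 0.15, limma adjusted p = 0.524), against -0.50 for the brighter probe, so the direction turned between probes.

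CM-CKO was higher than the single heterozygotes in most members, but all CM-Het and Het arrays are on beadchip 1 and all CM-CKO arrays on beadchips 2 and 3, so genotype and beadchip cannot be told apart here. Against Het the median member difference was 0.43, with 29 above 0, and against CM-Het it was 0.49, with 28 above 0. All genes had a median of 0.01 in each, with 46.7% of them below 0 against Het and 46.2% against CM-Het. With limma, 0 members were called in either, beside 0.219% of genes against Het and 0.211% against CM-Het. At an unadjusted p of 0.05 there were 1 (Ldb3, beside 7.99%) and 4 (Gata4, Fhod3, Mybphl and Ldb3, beside 10.6%). Mybphl, Ldb3 and Gata4 were higher in CM-CKO than in Het without overlap (4.13% of genes), and Fhod3, Gata4 and Mef2c higher than in CM-Het (5.97%). Of these arrays, Gata4 was above background only in CM-CKO 1 and CM-CKO 3. Mybphl and Ldb3 were so only in CM-CKO 1, CM-CKO 2 and CM-CKO 4. Gata4, Mybphl and Ldb3 passed the detection filter only through Control and CM-CKO arrays. Their higher signal in CM-CKO, and their unadjusted p under 0.05, follow in part from that filter. In these comparisons 0 members were lower without overlap, beside 4.11% and 5.09% of genes. The median against Het was 0.16 without CM-CKO 4, 0.20 without Het 2, 0.26 without CM-CKO 2, 0.28 without Het 1, 0.66 without CM-CKO 1 and 0.72 without Het 3. Against CM-Het it was 0.32 without CM-CKO 4.

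CM-Het and Het, which share a beadchip, were close. Their median difference was -0.11, with 9 members above 0 and 22 below, beside 51.6% of all genes below 0. With limma 0 members were called (0% of genes), 0 also at an unadjusted p of 0.05 (3.96%). The median was 0.25 without Het 3, the high array of its genotype, -0.24 without Het 1, -0.20 without Het 2 and -0.07 without CM-Het 1. Fhod3, Gata4 and Mef2c were lower in CM-Het without overlap (5.39% of genes), and Nppa higher (4.97%). Gata4 and Nppa were at background on every array of both genotypes.

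Averages over the design, in which a shift between beadchips 1 and 2 cancels, gave no called member. CM-CKO 3 and CM-CKO 4 are on beadchip 3, and a shift of that beadchip remains in both averages. For Cre averaged over the second Twist1 allele, limma called 0 members, beside 0.263% of genes, with 1 at an unadjusted p of 0.05 (7.24% of genes) and a median of -0.24. For the deleted allele averaged over Cre it called 0, beside 0.0878%, with 0 at an unadjusted p of 0.05 (7.24%) and a median of -0.15. The interaction, to which a beadchip shift adds, called 3 members, beside 1% of genes: Mybphl (1.33, SE 0.30, limma adjusted p = 0.0413), Ldb3 (0.93, SE 0.21, adjusted p = 0.0421) and Fhod3 (0.84, SE 0.19, adjusted p = 0.0412). In each the difference of CM-CKO from Het was above that of CM-Het from Control. Mybphl and Ldb3 passed the detection filter only through Control and CM-CKO arrays, so their interactions follow in part from it. The other tested probe gave an interaction of -0.13 for Ldb3 (SE 0.21, limma adjusted p = 0.819) and 0.29 for Fhod3 (SE 0.22, adjusted p = 0.561). Leaving out any 1 array ended the call of Mybphl, except Control 2, Control 4 and CM-CKO 3. It ended that of Ldb3, except CM-CKO 3, and that of Fhod3, except Het 3, Control 2, CM-CKO 2 and CM-CKO 3. Adjusted p then lay between 0.0265 and 0.109 for Mybphl, 0.0188 and 0.12 for Ldb3, and 0.0384 and 0.109 for Fhod3. The median interaction was 1.42, beside 0.03 over all genes, and beadchip and interaction cannot be told apart.

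With the mean of the 28 other heart muscle genes as a covariate, the members' median difference from Control moved toward 0 and the median SE fell. That mean followed the members at r = 0.99 within genotypes, so both changes are largely built in. A genotype effect shared by all heart muscle genes would shrink as well. The median SE in CM-CKO against Control was 0.14, near the 0.12 of all genes, and the median difference was -0.09. With limma 0 members were called in CM-CKO against Control (0.702% of genes), Het (0.246%) and CM-Het (0.342%), in CM-Het against Control (0.0702%) and Het (0%), in Het against Control (0%), for Cre (0.36%), the deleted allele (0.114%) and the interaction (0.623%). An unadjusted p of 0.05 was passed in CM-CKO by 6 members against Control (10.9% of genes), 3 against Het (8.46%) and 4 against CM-Het (12.6%). It was passed in CM-Het by 7 against Control (14.7%) and 3 against Het (4.75%), in Het by 6 against Control (10.6%), and by 7 for Cre (7.75%), 3 for the deleted allele (7.51%) and 6 for the interaction (14.4%). Myl7 then differed by -0.09 (SE 0.14), Myl2 by 0.23 (SE 0.27) and Actc1 by -0.04 (SE 0.19). Nppa differed by -0.79 (SE 0.30, adjusted p = 0.318), Mybpc3 by -0.39 (SE 0.16, adjusted p = 0.363) and Fhod3 by -0.38 (SE 0.13, adjusted p = 0.235). Some members moved away from 0. Cryab differed between CM-CKO and CM-Het by -0.69 with the covariate (SE 0.25, adjusted p = 0.268) and by -0.02 without it. Its interaction was -1.13 with the covariate (adjusted p = 0.165) and 0.45 without it. Myl2 remained 0.79 above Het in CM-CKO (SE 0.30, adjusted p = 0.421) and 0.67 above Het in CM-Het (SE 0.31, adjusted p = 0.999). For Fhod3 in CM-Het against Control the adjusted p was 0.06 at a difference of -0.71, and the 3 interactions had adjusted p from 0.0631 to 0.0927.

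**Figure D5:**
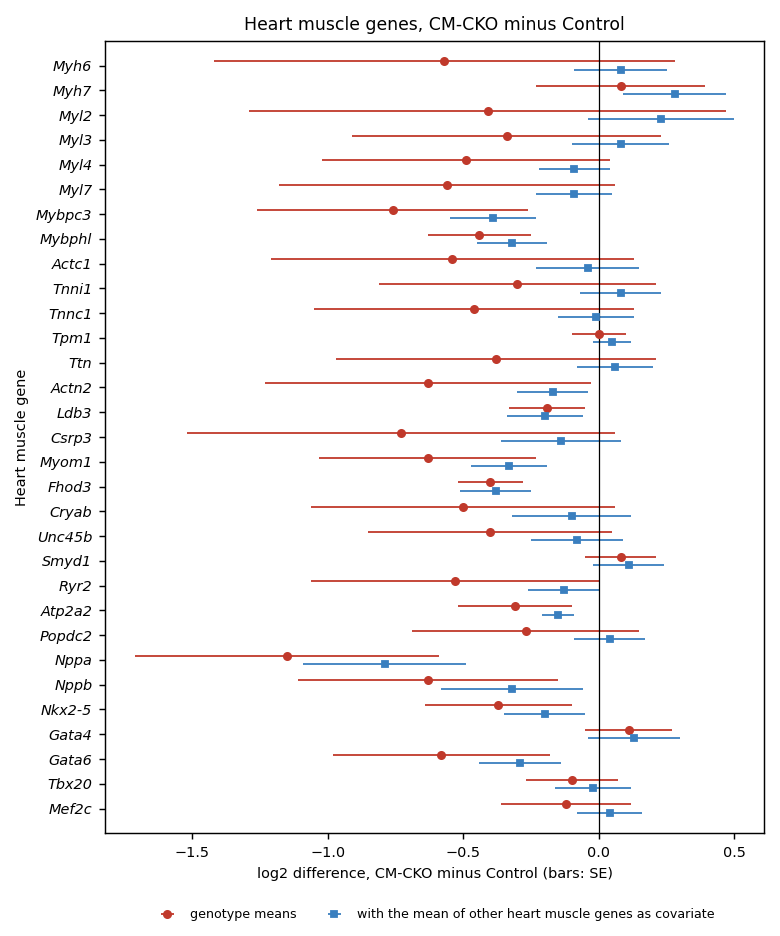
Log2 difference of CM-CKO minus Control for the 31 tested genes with its SE, from genotype means (red) and with the mean of 28 other heart muscle genes as covariate (blue). The median SE falls to 0.14 with the covariate, against 0.48 without it, and most blue points lie nearer 0. The covariate followed the members at r = 0.99, so this is largely built in.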

How the data were processed

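The deposited intensity is a linear bead signal per probe, neither normalized nor background subtracted, and a deposited detection p-value stands beside it, per the file headers. A deposited log2 table equals the quantile-normalized log2 intensity to within 0.0329 and served as an alternative. Neither scanner nor software is given in the sources used here. The detection p-values did not lie on the rows of their intensities (rank correlations -0.105 to -0.0946) and were put back by rank within each array, a step chosen after the values were seen. For 45259 of 45281 probes the 14 restored values occur as 1 deposited row. Background correction and quantile normalization used neqc (offset 16) of limma 3.58.1 in R 4.3.3.

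Of 45281 probes, 34885 have 1 gene symbol, 18 several and 10378 none in the platform annotation. The 17991 named probes detected on at least 3 arrays gave 11394 genes. Group means of all 14 arrays were fitted (lmFit, eBayes with a trend), and p-values were adjusted by the Benjamini-Hochberg method over all genes. The step was tested on simulated data. Replicate numbers showed no clear pairing of the arrays. Alternatives covered normalization, filters, probes, beadchip, replicate number, each array left out and a heart signal covariate. Genes named with every array's value were Nppa, Myl7, Myl2, Myh6, Myh7, Actc1, Nkx2-5, Gata4, Tbx5 and each called member. Outside the set, the 10 most alike and 3 most opposite genes were named, and genes of other lists that are singled out were chosen after their values were seen. The members and lists were chosen with earlier results of these data known. The number of arrays limits the precision.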

Additional observations from a re-analysis of the deposited data

Results flagged for a closer look

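Ldb3 in Control 4, at a log2 signal of 5.22, stood apart from the other 3 Control arrays, the nearest at 5.02 (gap over range 0.969). Smyd1 in Control 1, at 5.09, stood apart from the nearest at 4.79 (gap over range 0.893). Over 62 groups examined, chance alone would single out about 1 in 20. The effect of Cre differed between the deleted-allele and wild-type-allele heads for Mybphl (interaction 1.33), Ldb3 (0.93) and Fhod3 (0.84), each called by limma over all genes. By the probes used, every array of CM-Het and Het was at background for Mybphl and Ldb3, which passed the detection filter only through Control and CM-CKO. The other tested Ldb3 probe was above background in CM-Het 2 and CM-Het 3 and gave an interaction of -0.13, and the other Fhod3 probe 0.29. In all 3 a shift between beadchips 1 and 2 adds to it and cannot be told apart from it. Mybphl had adjusted p from 0.0265 without Control 2 to 0.109 without CM-Het 1, Ldb3 from 0.0188 without CM-CKO 3 to 0.12 without CM-Het 1, and Fhod3 from 0.0384 without CM-CKO 3 to 0.109 without CM-Het 1.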

How the results depend on the processing

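The absence of called members in CM-CKO against Control, against Het and against CM-Het, in CM-Het against Het and in both averages held in every alternative run. In CM-Het against Control 1 member was called. The count was 2 with centring on the median, 3 with beadchip as a random block, 0 without the detection filter, and 0 with the replicate number as a block. It lay between 0 and 1 with each array left out. In Het against Control it was 0, or 2 with beadchip as a random block. That fit estimated a correlation of -0.0585 within beadchips. A negative value narrows the SE of comparisons between beadchips, so its added calls do not show that a beadchip shift was removed. For Fhod3 in CM-Het against Control the SE went from 0.13 to 0.12. The replicate numbers showed no clear pairing. Same-number arrays correlated at a median of -0.01 (-0.24 to 0.25) and different-number arrays also at -0.01, while 6 of 14 arrays correlated best with their own number. These values cannot exclude a pairing.

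With the heart signal covariate 0 members were called; without it there were 1 in CM-Het against Control and 3 in the interaction. Leaving out an array gave 0 to 1 interaction calls with the covariate, the 1 without CM-CKO 3. The median pair correlation, 0.86, was 0.14 within CM-Het, 0.98 within Het, 0.97 within Control and 0.35 without the 5 high arrays. The number of members over 0.9, 19, was 8 within CM-Het and 5 without the high arrays, an alternative chosen after seeing the data. No share of all genes is given for the 8 and the 5, and over the 3 arrays of CM-Het a high r arises easily. With quantile normalization alone the median of CM-CKO minus Control was -0.29, of CM-Het minus Control -0.57, of Het minus Control -0.51, of CM-CKO minus Het 0.19 and of CM-CKO minus CM-Het 0.24, each nearer 0 than with background correction. Beadchip as a fixed block could be fitted for CM-CKO minus Control (-0.64), CM-Het minus Het and both averages; the other contrasts could not be estimated. Probes near background and 3 or 4 arrays a genotype limit what could be seen.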
